A study of Mus musculus with 44 samples.

Results

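A set of 10 immediate early genes was followed across 44 arrays of mouse male germ cell RNA: Fos, Fosb, Jun, Junb, Egr1, Zfp36, Ier2, Ier3, Atf3 and Dusp1. They were taken by gene symbol, with every probe annotated to them, which gave 11 of the 45281 probes on the array (Junb has 2 probes and each other gene 1). Each array was hybridised with total RNA from adult testis, either from meiotic spermatocytes or from postmeiotic round spermatids. Experiment 1 compared wild-type mice with Th2b+/tag mice, in which 1 allele makes TH2B, the testis form of histone H2B, with His, Flag and HA tags at its C-terminus, and it held 6 arrays for each genotype and cell type. In experiment 2 the other genotype was labelled kd, animals that by the study design made no TH2B, set against their own wild types, and every group had 5 arrays. The arrays of a group are called biological replicates in the design, and the sources used here do not give the purification.

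Immediate early genes are switched on within minutes of a stimulus without new protein synthesis, because the transcription factors that start them are already in the cell. Kinases of the MAP kinase family signal to factors such as the serum response factor partners Elk1 and Elk4, and CREB. These factors act at elements close to the promoters. Immediate early transcripts are short-lived, and they also rise when a tissue is dissociated into single cells, which makes them common indicators of cell handling. In the testis the somatic cells around and between the tubules can express them as well.

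Values below are log2 intensities after background correction and quantile normalization, with a constant of 16 added before the logarithm, so that differences of dim probes are understated. A probe counts as above background on an array where its deposited detection p was under 0.05. Median raw intensities ran from 91.4 to 119 and 15997 to 19348 probes were above background per array. Markers of spermatocytes averaged 9.59 to 9.87 in the groups labelled spermatocytes and 8.76 to 9.37 in those labelled spermatids, over 15 tested markers, while Sycp3, Hormad1 and Dmc1, which encode meiotic chromosome proteins, were above background on no array. Markers of round spermatids averaged 12.5 to 12.7 in spermatid groups and 10.6 to 11.4 in spermatocyte groups, over 19 markers. The spermatocyte arrays thus also carried spermatid transcripts, most of all replicate 1 of wild type in experiment 1, replicates 1 and 2 of tag, and replicate 1 of kd.

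The 10 genes differed in how often they were measurable at all. Egr1, a zinc finger transcription factor, and Dusp1, a phosphatase that switches MAP kinases off, were above background on all 44 arrays. Zfp36, which binds AU-rich elements and speeds the decay of messenger RNAs, was above background on 41 arrays and Ier3, a regulator of survival and stress signals, on 38. The brighter Junb probe was above background on 30 arrays, Fos on 23, Jun on 16 and Fosb on 11. These 4 genes encode subunits of the AP-1 transcription factor, in which a Fos protein pairs with a Jun protein. Ier2, a nuclear regulator of transcription, and Atf3, a stress-induced factor of the ATF family, were above background on 0 of 44 arrays, with raw intensities of 86.1 to 111 and 78.5 to 109. The second Junb probe, annotated to a cDNA clone, was above background on 1 array. Ier2, Atf3 and the second Junb probe were therefore not tested, which left 8 genes among the 12260 tested.

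Fos was detected mostly in experiment 2. It was above background on 18 of 20 arrays there and on 5 of 24 in experiment 1, whereas Egr1 and Dusp1 were above background on every array of both. Jun was above background on 9 of 24 arrays in experiment 1 and on 7 of 20 in experiment 2. The plot of all values by array shows the 8 tested genes in each group.

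**Figure D1:**
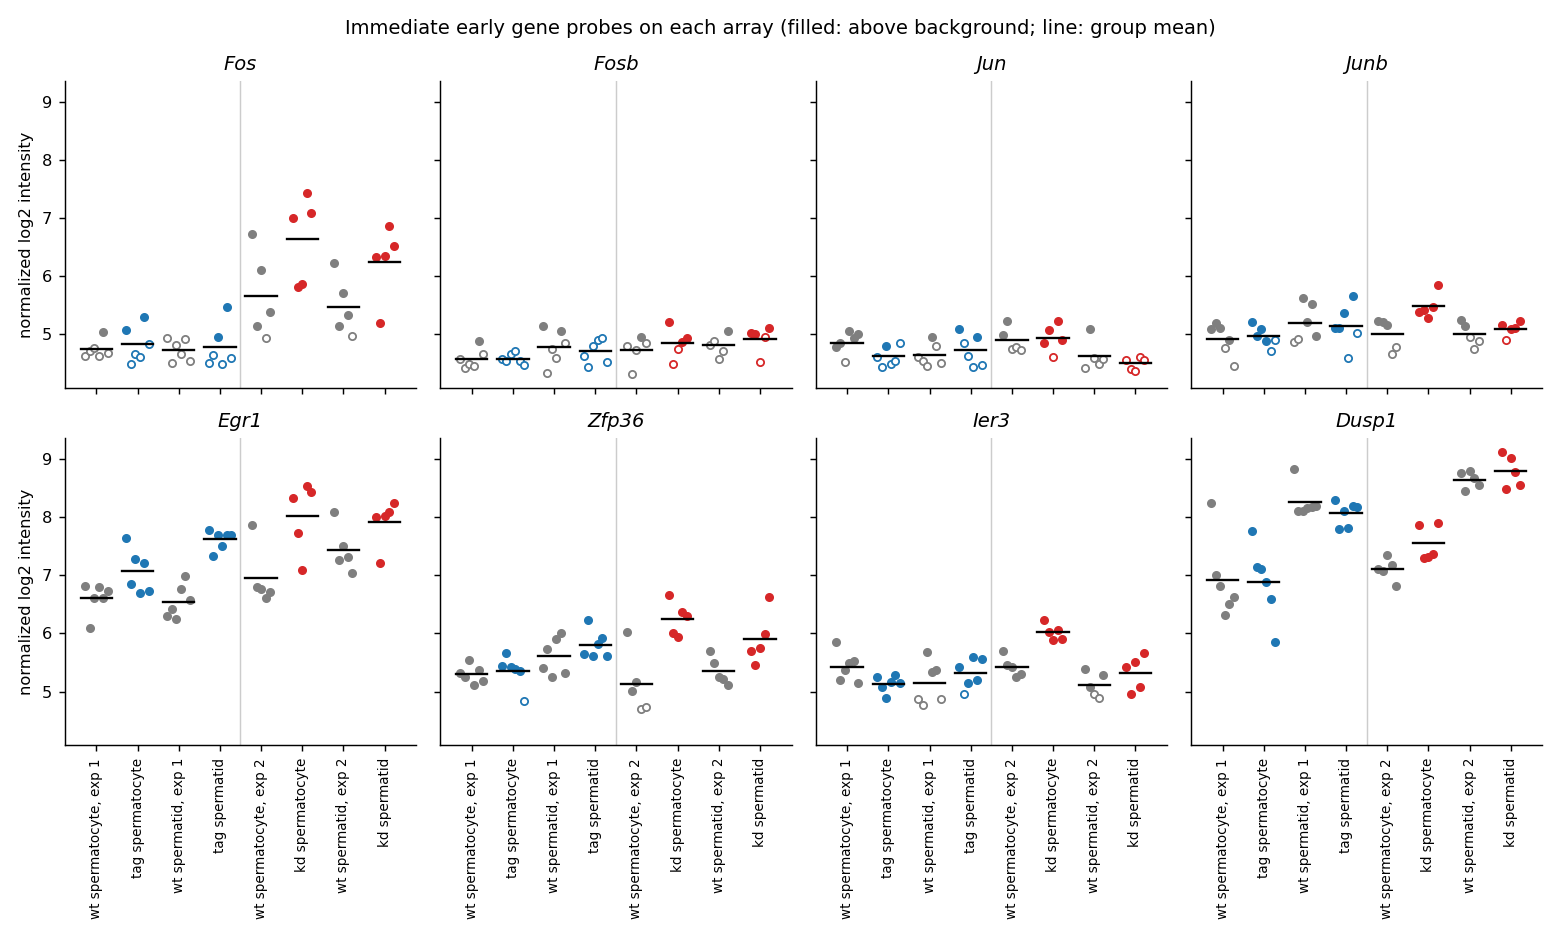
Normalized log2 intensity of the 8 tested immediate early genes on each of the 44 arrays, by group (grey wild type, blue tag, red kd; filled points are above background, open points are not, lines are group means, and the vertical line separates experiment 1 from experiment 2). Fos lies between 4.49 and 5.47 in experiment 1 and between 4.93 and 7.43 in experiment 2, and Dusp1 is higher in spermatid than in spermatocyte groups.

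The promoter windows of Zfp36, Fos and Dusp1 are shown because Zfp36 gave the smallest adjusted p of the set in kd-labelled spermatocytes, Fos passed between the wild types of the experiments in both cell types, and Dusp1 passed between cell types in every genotype group. Each window holds the 250 bases before the gene start from RefSeq (GRCm38.p6), written 5′ to 3′ on the gene's strand, and 8 of the 10 genes had an entry (Ier2 and Egr1 had none). Capitals mark the serum response element (CArG box), the EGR site GCGNGGGCG, the cAMP response element TGACGTCA, its shorter form TGACG (which lies within it), the TATA element TATAAA and the AP-1 site TGANTCA, searched on both strands.
Zfp36, chr7:28379229-28379478, minus strand: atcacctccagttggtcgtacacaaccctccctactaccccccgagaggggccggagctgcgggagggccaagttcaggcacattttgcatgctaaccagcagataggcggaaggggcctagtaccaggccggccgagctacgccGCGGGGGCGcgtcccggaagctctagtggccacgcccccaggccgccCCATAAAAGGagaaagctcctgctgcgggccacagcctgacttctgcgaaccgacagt
Fos, chr12:85473640-85473889, plus strand: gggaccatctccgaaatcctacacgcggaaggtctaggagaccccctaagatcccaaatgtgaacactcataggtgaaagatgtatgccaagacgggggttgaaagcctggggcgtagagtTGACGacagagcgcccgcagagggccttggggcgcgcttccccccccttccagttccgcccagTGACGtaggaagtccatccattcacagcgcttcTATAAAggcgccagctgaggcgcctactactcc
Dusp1, chr17:26508473-26508722, minus strand: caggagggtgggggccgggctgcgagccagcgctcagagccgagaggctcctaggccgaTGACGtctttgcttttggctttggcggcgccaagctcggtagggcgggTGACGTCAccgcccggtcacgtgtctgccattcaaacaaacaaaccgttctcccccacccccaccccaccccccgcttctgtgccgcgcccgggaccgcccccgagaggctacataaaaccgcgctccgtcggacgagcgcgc
Sites further than 250 bases before the start were not searched, so a motif missing from a window, that of Fos included, may lie further upstream. A CArG box, the site of serum response factor, was found in 1 of the 8 windows, that of Zfp36, at 58 bases before the start, and in 1.47% of 32851 windows of all genes. TGACGTCA was found in 1 of 8, that of Dusp1, at 143 bases before the start, and in 1.55% of all. TGACG was found in 5 of 8 (Atf3, Dusp1, Fos, Fosb and Junb) and in 17.8% of all, and GCGNGGGCG in 2 of 8 (Fosb and Zfp36) and in 4.7% of all. TATAAA was found in 1 of 8, that of Fos, at 33 bases before the start, and in 12.4% of all, and TGANTCA in 0 of 8 and in 6.75% of all. The GC box GGGCGG, not capitalised, was found in 7 of 8 windows and in 32.7% of all.

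In spermatocytes labelled kd, 3 of the 8 genes were higher than in wild type and none was lower, where 1.56% of the 12260 genes passed in either direction and 0.824% were higher (limma, Benjamini-Hochberg adjusted p under 0.05). The 3 genes were Zfp36, Egr1 and Ier3. The median log2 difference of the 8 genes was 0.53, against 0.00079 over all genes tested.

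Zfp36 (chromosome 7, 28376784 to 28379228, GRCm38.p6) measured 6.66, 6.01, 5.93, 6.36 and 6.30 on the kd-labelled arrays and 6.03, 5.00, 5.16, 4.71 and 4.74 on the wild-type arrays, in order of replicate number. Wild-type replicate 1 lay above the lower pair of kd-labelled arrays, and the other 4 wild-type arrays lay below all 5. The log2 difference was 1.12 ± 0.20 (SE, n = 5 and 5), a 2.18-fold difference, with limma's adjusted p = 5.77e-04. Wild-type replicates 4 and 5 were not above background.

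Egr1 measured 8.33, 7.73, 7.08, 8.54 and 8.44 on the kd-labelled arrays and 7.87, 6.79, 6.77, 6.62 and 6.72 on the wild-type arrays. The groups overlapped through wild-type replicate 1 and kd-labelled replicates 2 and 3. The log2 difference was 1.07 ± 0.24 (SE), with limma's adjusted p = 0.00585. With only these 2 groups in the limma fit the adjusted p was 0.118.

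Ier3 (chromosome 17, 35821713 to 35822911) measured 6.23, 6.02, 5.89, 6.05 and 5.91 on the kd-labelled arrays and 5.69, 5.46, 5.43, 5.26 and 5.31 on the wild-type arrays, so that the groups did not overlap. The log2 difference was 0.59 ± 0.15 (SE), with limma's adjusted p = 0.0318. The call was lost in 7 of 10 limma fits that each left out 1 array, namely wild-type replicates 2, 3, 4 and 5 and kd-labelled replicates 1, 2 and 4, with adjusted p from 0.0577 to 0.133 and log2 differences from 0.54 to 0.60.

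The AP-1 genes did not pass. Fos (chromosome 12, 85473890 to 85477274) measured 7.01, 5.82, 5.86, 7.43 and 7.09 on the kd-labelled arrays and 6.73, 5.15, 6.11, 4.93 and 5.39 on the wild-type arrays. Both groups were widely spread, with SDs of 0.75 and 0.75, and overlapped. The log2 difference of 0.98 ± 0.29 (SE) had limma's adjusted p = 0.0781, and without wild-type replicate 1, kd-labelled replicate 2 or kd-labelled replicate 3 it was 0.0104, 0.0253 and 0.0284. Junb measured 5.39, 5.43, 5.28, 5.47 and 5.84 against 5.23, 5.21, 5.16, 4.67 and 4.79, with no overlap, and the log2 difference of 0.47 ± 0.16 (SE) had limma's adjusted p = 0.150. Fosb and Jun differed by 0.12 ± 0.14 and 0.04 ± 0.14. Dusp1 differed by 0.45 ± 0.25 (limma's adjusted p = 0.461).

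**Figure D2:**
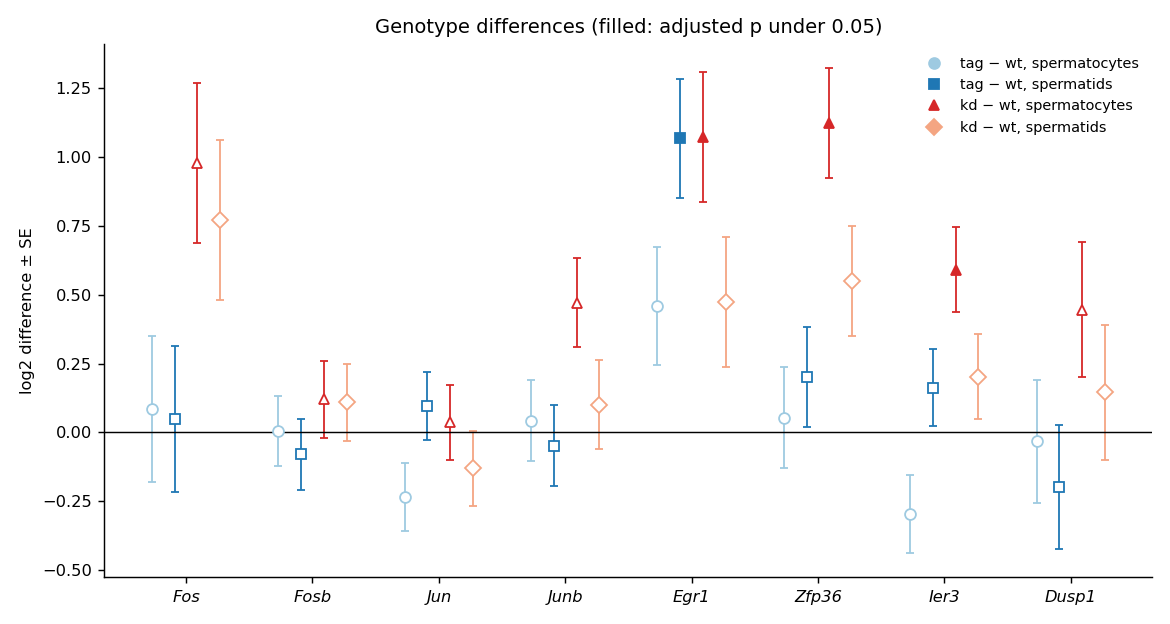
Log2 difference (± SE) from wild type of the same experiment and cell type for the 8 tested genes, in 4 comparisons; filled symbols have an adjusted p under 0.05. Filled symbols are Egr1 for tag spermatids, and Egr1, Zfp36 and Ier3 for kd-labelled spermatocytes.

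Markers of peritubular smooth muscle cells, the contractile cells that wrap the tubules, also differed between kd-labelled and wild-type spermatocytes. This list was chosen with earlier results of these data known. Of 18 tested markers, 7 were higher in kd-labelled spermatocytes and 0 lower, with a median log2 difference of 0.72, where 0.824% of all genes were higher. Another 4 (Cnn1, Lmod1, Col1a2 and Col3a1) were too dim to test. Myl9, a myosin light chain of smooth muscle, differed by 1.88 ± 0.34 (SE), Tpm2, a tropomyosin, by 1.18 ± 0.21, and Bgn, a matrix proteoglycan, by 1.57 ± 0.29. Their summed level on the linear scale ran from 6485 to 17074 on the kd-labelled arrays and from 2960 to 5415 on the wild-type arrays, without overlap. With the mean scaled level of these markers as a covariate, Zfp36 differed by 0.76 (limma's adjusted p = 0.0542), Egr1 by 0.73 (0.131) and Ier3 by 0.42 (0.196), and 0 of the 8 genes passed. The mean level of these markers itself separated the groups, 6.85 to 7.93 on the kd-labelled and 5.94 to 6.71 on the wild-type arrays. A call lost under this covariate therefore cannot tell genotype from marker level. In bulk RNA, more cells of a type and more RNA per cell cannot be told apart. Of the other lists, 1 of 12 Sertoli markers was higher (Vim, an intermediate filament, by 0.97), and none of 12 endothelial, 13 macrophage and blood, 7 Leydig and 12 heat shock genes passed in either direction, with medians of 0.22, 0.21, 0.24 and 0.04. None of 19 round spermatid markers passed, but all 19 had a positive difference, with a median of 0.33. Ier3 lost its call with the macrophage marker level as a covariate (limma's adjusted p = 0.0810) and without kd-labelled replicate 1 and the arrays of experiment 1 highest in spermatid markers (0.0837), both settings added after the data were seen.

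The plot of marker and gene levels by array sets the means side by side. Kd-labelled replicate 1 had the highest peritubular level, 7.93, and the highest mean of the 8 genes, 6.44. Kd-labelled replicates 4 and 5 had means of the 8 genes of 6.42 and 6.41 at peritubular levels of 7.23 and 6.90. In experiment 1, wild-type spermatocyte replicate 1 reached a peritubular level of 7.18 with a mean of the 8 genes of 5.67, each the highest of its group. Replicate 1 was also highest in both measures among tag spermatocytes (6.94 and 5.70) and wild-type spermatocytes of experiment 2 (6.71 and 6.05). In none of the spermatid groups was the same array highest in both.

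**Figure D3:**
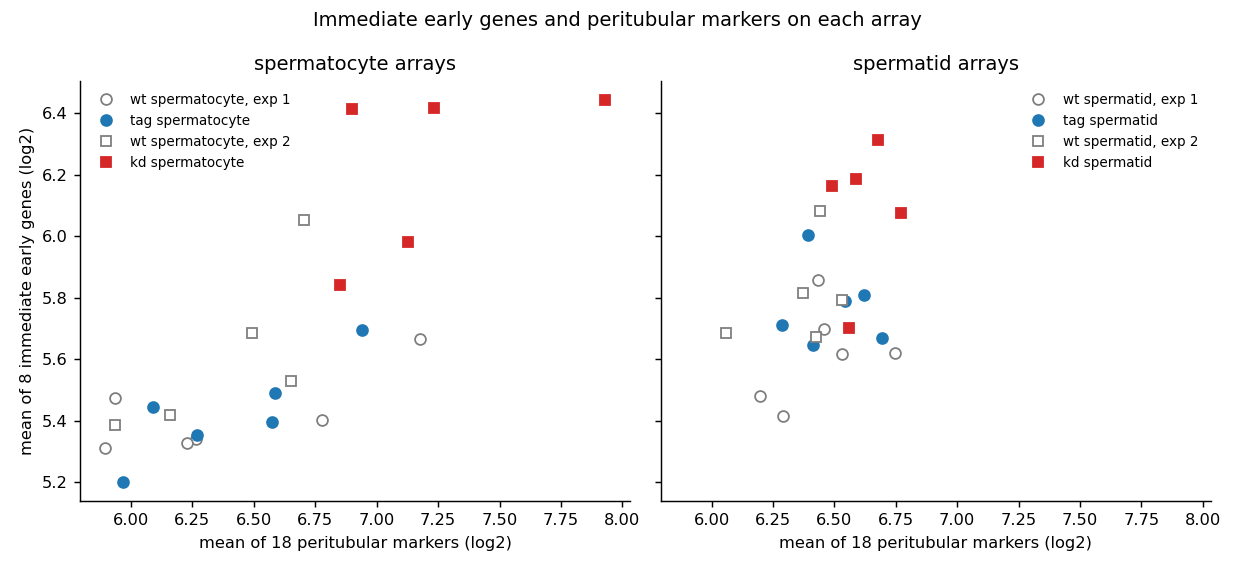
Mean log2 level of the 8 tested immediate early genes (vertical) against the mean log2 level of 18 peritubular markers (horizontal) on each array, for spermatocytes (left) and spermatids (right); circles are experiment 1, squares experiment 2, and filled symbols are tag or kd. The kd-labelled spermatocyte arrays lie between 6.85 and 7.93 on the horizontal axis, and the wild-type ones of experiment 2 between 5.94 and 6.71.

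In kd-labelled spermatids 0 of the 8 genes passed (1.89% of all genes did, and 0.693% were higher), with 2 genes at an unadjusted p under 0.05, both higher. Fos measured 6.33, 5.20, 6.35, 6.86 and 6.52 on the kd-labelled arrays and 6.23, 5.14, 5.72, 5.33 and 4.97 on the wild-type arrays, where kd-labelled replicate 2 lay among the wild types. Its log2 difference was 0.77 ± 0.29 (SE, limma's adjusted p = 0.233), and 0.0411 was the adjusted p without kd-labelled replicate 2. Zfp36 measured 5.70, 5.45, 5.74, 5.99 and 6.63 against 5.70, 5.48, 5.25, 5.21 and 5.11, a difference of 0.55 ± 0.20 (limma's adjusted p = 0.203). Egr1 differed by 0.47 ± 0.24 (0.484). The difference between the kd effects in the 2 cell types was itself tested, and 0 of the 8 genes passed. Of all genes 0.0489% did, 0.00816% with a larger and 0.0408% with a smaller value in spermatids. Zfp36 alone had an unadjusted p under 0.05, with a difference of -0.57 ± 0.28 (SE, limma's unadjusted p = 0.0496). For Egr1 it was -0.60 ± 0.33 (limma's unadjusted p = 0.0797), and limma's adjusted p was 0.9999 for both genes.

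In tag spermatids 1 of the 8 genes was higher and none lower, where 16.2% of all genes passed and 9.47% were higher. Egr1 ran from 7.33 to 7.78 (median 7.69) on the 6 tag arrays and from 6.24 to 7.00 (median 6.50) on the 6 wild-type arrays. All 6 tag arrays lay above all 6 wild-type arrays. The log2 difference was 1.07 ± 0.22 (SE, n = 6 and 6), a 2.10-fold difference, with limma's adjusted p = 1.99e-04. Fos did not pass (limma's adjusted p = 0.938) and was above background on 2 of 6 tag arrays and 0 of 6 wild-type arrays. Zfp36 differed by 0.20 ± 0.18, Ier3 by 0.16 ± 0.14 and Dusp1 by -0.20 ± 0.22, and none of these passed. Peritubular markers were split beside it, with 2 of 18 higher and 2 lower, and their summed level ran from 6188 to 8059 in tag and from 7025 to 9075 in wild-type spermatids. Of 12 endothelial markers 2 were higher, Egfl7 by 1.72 ± 0.30 (SE) and Pecam1, which was above background on 4 of 6 tag and 0 of 6 wild-type arrays. The part of these markers in the Egr1 difference was not tested, and with the peritubular level as a covariate it was 1.08.

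In tag spermatocytes 0 of the 8 genes passed (5.39% of all genes did, 4.17% higher and 1.22% lower), with 1 higher and 1 lower at an unadjusted p under 0.05. Egr1 ran from 6.70 to 7.64 (median 7.04) in tag and from 6.10 to 6.82 (median 6.67) in wild type, a difference of 0.46 ± 0.22 (limma's adjusted p = 0.306). Ier3 differed by -0.30 ± 0.14 (0.319). The difference between the tag effects in the 2 cell types passed for 0 of the 8 genes (2.5% of all genes passed, 1.94% with a larger value in spermatids), with 1, Ier3, at an unadjusted p under 0.05, and for Egr1 it was 0.61 (95% interval 0.01 to 1.20, limma's adjusted p = 0.549).

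Of 31 other tested immediate early genes, 5 were higher and 4 lower in tag spermatids, where 9.47% of all genes were higher and 6.71% lower. Ppp1r15a, a phosphatase subunit that restores translation after stress, was higher by 1.27 ± 0.16 (SE, limma's adjusted p = 4.83e-08), Nr4a3, a nuclear receptor, by 1.28 ± 0.26 (2.36e-04), and Dusp2, a MAP kinase phosphatase, fell by 0.76 on the log2 scale (4.87e-05). In tag spermatocytes, where 4.17% of all genes were higher and 1.22% lower, 2 of the 31 were higher and 0 lower: Dusp4, another MAP kinase phosphatase, by 1.53 ± 0.27 and Nr4a3 by 1.26 ± 0.26. Among 15 tested upstream regulators, Elk4 was above background on 6 of 6 tag spermatid arrays, 4 of 6 tag spermatocyte arrays and 0 of 6 wild-type arrays of either cell type. It passed in spermatids (limma's adjusted p = 4.44e-16), in spermatocytes (0.00154) and in the test that its tag effect differed between them, larger in spermatids (3.05e-06). Creb1 was higher in tag spermatids by 0.61 ± 0.17 and the kinase gene Mapk9 fell by 0.59 on the log2 scale.

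In the kd comparison 1.56% of all genes passed in spermatocytes and 1.89% in spermatids. Of the 31 other immediate early genes, 1 was higher in kd-labelled spermatocytes, Ccn2, a secreted matrix-associated protein, by 1.77 ± 0.35 (SE, limma's adjusted p = 0.00189), and 1 in kd-labelled spermatids, Cebpb, a leucine zipper factor, by 0.99 ± 0.21 (0.00273). None was lower in either cell type. Of the 15 upstream regulators 0 passed in either cell type, with medians of 0.01 and -0.05.

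Between cell types, Dusp1 (chromosome 17, 26505591 to 26508472) was higher in round spermatids in all 4 genotype groups. In wild type of experiment 2 it measured 8.76, 8.45, 8.80, 8.67 and 8.56 in spermatids and 7.10, 7.08, 7.36, 7.18 and 6.81 in spermatocytes, without overlap, a log2 difference of 1.54 ± 0.25 (SE, limma's adjusted p = 5.77e-07). In kd-labelled cells the spermatid arrays ran from 8.49 to 9.12 and the spermatocyte arrays from 7.30 to 7.90, a difference of 1.24 ± 0.25 (2.58e-05). In wild type of experiment 1 the spermatid arrays ran from 8.10 to 8.84 and the spermatocyte arrays from 6.32 to 8.25, where spermatocyte replicate 1 alone overlapped, and the difference was 1.34 ± 0.22 (1.47e-06). In tag cells spermatids ran from 7.80 to 8.29 and spermatocytes from 5.86 to 7.77, without overlap, a difference of 1.18 ± 0.22 (1.49e-05). In these comparisons 61.5%, 61.9%, 62% and 61.9% of all genes passed (wild type of experiment 1, tag, wild type of experiment 2 and kd-labelled), so that passing was the usual case. Genes higher in spermatids were 27.8%, 29.6%, 26.9% and 26.8% of all, and genes lower were 33.7%, 32.3%, 35.1% and 35.1%.

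Genes other than Dusp1 also passed between cell types in tag and kd-labelled cells, although the tests of a difference between genotypes in this contrast, given above, passed for 0 of the 8. Of the 8 genes, 1 passed in each wild type, 3 in tag cells (all higher in spermatids) and 4 in kd-labelled cells (1 higher and 3 lower). Of all genes 61.5% to 62% passed in these comparisons. In tag cells Egr1 was higher in spermatids by 0.55 ± 0.22 (SE, limma's adjusted p = 0.0254) and Zfp36 by 0.46 ± 0.18 (0.0280). Egr1 lost its call without tag spermatocyte replicate 2, 4 or 6 (adjusted p from 0.0515 to 0.0688), and Zfp36 without tag spermatid replicate 2 (0.0867) or tag spermatocyte replicate 6, where the difference was 0.35. In kd-labelled cells the limma log2 differences were -0.70 ± 0.15 for Ier3 (adjusted p = 1.24e-04) and -0.38 ± 0.16 for Junb (0.0372), whose call was lost without any 1 of kd-labelled spermatocyte replicates 4 and 5 and spermatid replicates 2, 3 and 4 (0.0530 to 0.133). Jun was lower in spermatids (limma's adjusted p = 0.00557), above background on 4 of 5 kd-labelled spermatocyte arrays and 0 of 5 spermatid arrays. Its spermatocyte mean, 4.93, did not exceed the spermatid arrays when these were raised to their lowest signal above background. No fold is therefore given, and the Jun difference lies at the level of background. In the same comparison 10 of 18 peritubular markers were lower in spermatids and 3 higher, where 35.1% of all genes were lower and 26.8% higher. With the level of these markers as a covariate, Junb had a limma adjusted p of 0.279 while Ier3 (0.00283) and Jun (0.0126) passed. In wild type of experiment 2, where samples of the same replicate number were called paired from their correlation, Egr1 was higher in spermatids by 0.49 (limma's adjusted p = 0.0696). Limma's adjusted p was 0.0359 with the replicate number as a block.

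**Figure D4:**
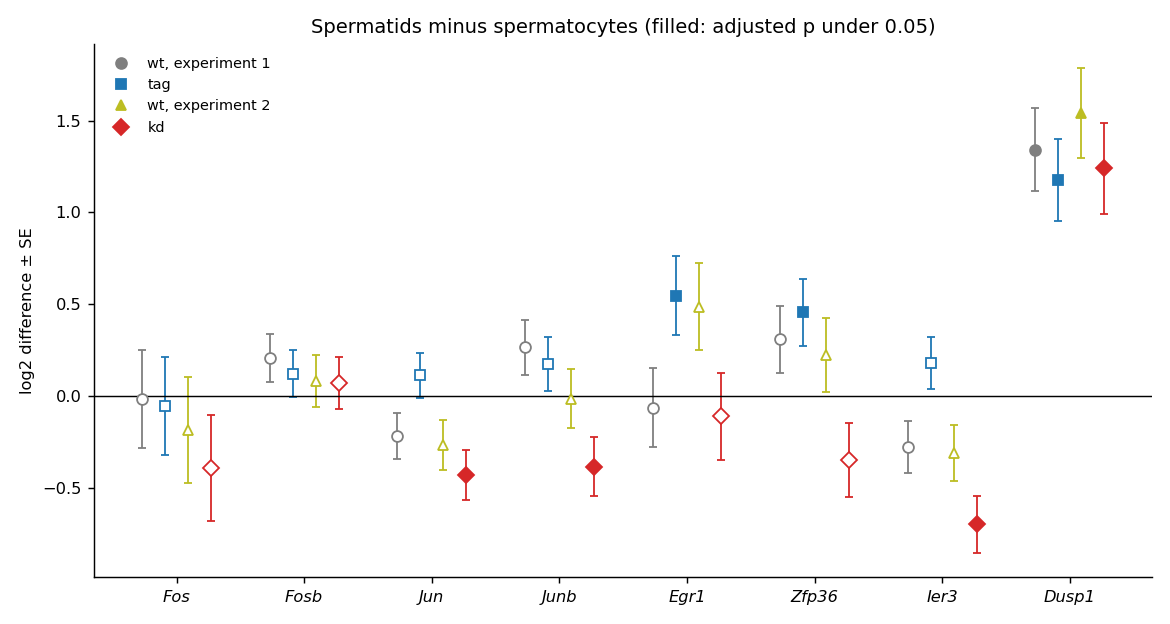
Log2 difference (± SE) of round spermatids minus spermatocytes for the 8 tested genes in the 4 genotype groups; filled symbols have an adjusted p under 0.05. Dusp1 is higher in spermatids in every group, between 1.18 and 1.54, and Ier3 is lowest in the kd-labelled group at -0.70.

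Macrophage and blood markers and Leydig markers differed between the cell types as well. Macrophage and blood markers were higher in spermatid groups (12, 10, 8 and 8 of 13, none lower, in wild type of experiment 1, tag, wild type of experiment 2 and kd-labelled), where 26.8% to 29.6% of all genes were higher, with summed levels of 653 to 2253 in spermatids and 332 to 752 in spermatocytes. Markers of Leydig cells, the steroid-making cells between tubules, were lower in spermatids for 6 of 7 in every group, where 32.3% to 35.1% of all genes were lower. Of 12 Sertoli markers 3, 3, 5 and 2 were higher and 1, 1, 0 and 1 lower in the same order of groups. Of 12 endothelial markers 2, 3, 2 and 0 were higher and 4, 4, 3 and 5 lower. These counts stand beside the same shares of all genes, and no difference of the Sertoli or endothelial lists is read from them. With the macrophage marker level as a covariate, a setting added after the data were seen, the Dusp1 difference was 0.23 in wild type of experiment 1, 0.14 in tag cells and 0.48 in kd-labelled cells, and it passed in none of these 3, while in wild type of experiment 2 it was 0.83 and passed (limma's adjusted p = 0.0187). With the round spermatid marker level as a covariate it was 0.37, 0.32 and 0.03 in wild type of experiment 1, tag and wild type of experiment 2 and -0.04 in kd-labelled cells, none past the threshold. Both marker levels themselves separate the cell types.

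Among the other 31 immediate early genes, 10 to 13 were higher and 5 to 7 lower in spermatids over the 4 genotype groups, where 26.8% to 29.6% of all genes were higher and 32.3% to 35.1% lower. Klf4, a zinc finger factor, was higher by 2.03 ± 0.24 (SE) and 2.55 ± 0.26 in the wild types of experiment 1 and 2, and Mcl1, an inhibitor of apoptosis, had log2 differences of -1.91 ± 0.17 and -1.68 ± 0.19. Srf, the serum response factor itself, was higher in spermatids by 1.36 ± 0.14 and 1.73 ± 0.15, and the kinase gene Mapk8 differed by -1.50 ± 0.17 and -1.47 ± 0.19. Of 12 heat shock genes, 1 was higher and 4 to 6 were lower in spermatids, beside the same shares of all genes.

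Wild-type arrays of experiment 2 were also set against those of experiment 1, where experiment, mouse colony and any batch cannot be told apart. In spermatocytes 1 of the 8 genes passed, where 25.8% of all genes did: Fos measured 6.73, 5.15, 6.11, 4.93 and 5.39 in experiment 2 and ran from 4.63 to 5.04 in experiment 1, where 1 of 6 arrays was above background, a difference of 0.92 ± 0.28 (SE, limma's adjusted p = 0.0114), or 0.65 (0.0795) without replicate 1 of experiment 2. In spermatids 2 passed, where 27.8% of all genes did. Egr1 was higher in experiment 2 by 0.89 ± 0.23 (0.00216). Fos was at least 1.43-fold higher in experiment 2, taken against the lowest signal above background since it was above background on 0 of 6 arrays of experiment 1, with limma's adjusted p = 0.0390, and the call was lost without replicate 2, 4 or 6 of experiment 1 or replicate 1 or 3 of experiment 2 (0.0592 to 0.162). It was also lost in 6 of 14 other settings, with no background correction (0.134), median centring (0.0504), cyclic loess (0.145), the authors' values (0.123), no filter (0.0649) and the macrophage covariate (0.0833). Heat shock genes were higher in experiment 2 in the same comparisons, 6 of 12 in each cell type and none lower, and in spermatids 7 of 13 macrophage and blood markers were lower in experiment 2. In spermatocytes 14 of 19 round spermatid markers were lower in experiment 2 and none higher, with a median of -0.91. Of all genes, 13.2% were higher and 12.5% lower in experiment 2 in spermatocytes, and 14.5% and 13.3% in spermatids. With the spermatid marker level as a covariate Fos differed by 0.90 in spermatocytes (limma's adjusted p = 0.0347), and with the macrophage level Egr1 differed by 1.16 in spermatids (0.00259). The part of the heat shock genes was not tested.

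Ordered by level, Egr1 ran from 8.03 ± 0.61 (SD, n = 5) in kd-labelled spermatocytes through 7.92 ± 0.41 in kd-labelled spermatids, 7.62 ± 0.16 in tag spermatids, 7.44 ± 0.40 in wild-type spermatids of experiment 2, 7.07 ± 0.37 in tag spermatocytes and 6.95 ± 0.52 in wild-type spermatocytes of experiment 2 to 6.61 ± 0.27 and 6.55 ± 0.29 in the wild types of experiment 1. No neighbours in this order differed by more than the larger of their SDs. For Fos the only such step was from 5.48 ± 0.50 in wild-type spermatids of experiment 2 to 4.83 ± 0.31 in tag spermatocytes, that is, between the experiments. For Ier3 it was from 6.02 ± 0.14 in kd-labelled spermatocytes to 5.43 ± 0.25 in wild-type spermatocytes of experiment 1, and for Zfp36, Fosb, Jun and Junb there was none. Dusp1 had 3 such steps: from wild-type spermatids of experiment 2 (8.65 ± 0.15) to those of experiment 1 (8.27 ± 0.28), from tag spermatids (8.07 ± 0.21) to kd-labelled spermatocytes (7.55 ± 0.30), and from there to wild-type spermatocytes of experiment 2 (7.11 ± 0.20).

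Within groups, some of the genes moved together from array to array. Over the 44 arrays, as deviations from group means, Fos and Egr1 had a Pearson r of 0.75 (Spearman rho 0.65), Egr1 and Zfp36 0.62 (0.58) and Fos and Zfp36 0.56 (0.49). Against the mean of the other 7, Egr1 had r = 0.74, Fos 0.65, Zfp36 0.57, Junb 0.49 and Ier3 0.36, while Dusp1 (0.24), Fosb (0.15) and Jun (0.11) were lower. Fosb and Jun were above background on only 11 and 16 of the 44 arrays, which limits what their r can show, and Dusp1 on all 44. In experiment 2, replicate 1 of each wild-type group had the highest Fos, Egr1 and Zfp36 of its group, and kd-labelled replicate 2 had the lowest Fos of its group in both cell types. These correlations describe arrays that were normalized together.

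The genes outside the 10 whose deviations were most like the mean of the 8 were Taz, which encodes the cardiolipin-remodelling enzyme tafazzin (r = 0.66), Ramp2, a receptor partner of endothelial cells (0.63), Prelp, a matrix proteoglycan (0.63), Smox, a polyamine oxidase (0.63), Mpp3 (0.63), the interferon-responsive factor Irf1 (0.61), Guk1, a guanylate kinase (0.60), Ilk, a kinase of integrin adhesions (0.60), the folate carrier Slc19a1 (0.59) and Tril (0.59). Slc19a1, Tril, Mpp3 and Prelp were above background on only 8, 12, 17 and 20 of the 44 arrays, and the other named genes on 32 to 44. Over all 12252 other genes r ran from -0.33 to 0.37 between the 5th and 95th percentiles, with a median of -0.0049. By list the median r was 0.43 for 18 peritubular, 0.32 for 12 endothelial, 0.27 for 14 spermatogonial, 0.25 for 12 Sertoli, 0.25 for 19 round spermatid, 0.22 for 7 Leydig and 0.16 for 13 macrophage and blood markers, 0.19 for the 31 other immediate early genes 0.02 for 15 upstream regulators, -0.05 for 12 heat shock genes and -0.11 for 15 spermatocyte markers.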

How the data were processed

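RNA was measured on 44 Illumina bead arrays. The deposited raw table holds, per the file headers, 1 intensity and 1 detection p-value per probe and array, and the deposited processed table holds intensity values that the authors had quantile normalized on the linear scale (array medians 104.27 to 104.36, same probe ranks). The sources used here do not name its software.

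From the deposited intensities, log2 values were made with neqc of limma 3.58.1 in R 4.3.3 (normexp background from detection p-values, offset 16, quantile normalization). Probes with a detection p under 0.05 on at least 5 arrays were kept (22605), and the brightest kept probe stood for each of 12260 genes. Gene names came from the platform annotation, updated through RefSeq (GRCm38.p6): of 45281 probes 34885 had 1 gene, 18 several and 10378 none. A linear model of 8 group means was fitted with lmFit and eBayes, tests were two-sided, and p-values were adjusted by Benjamini-Hochberg over all 12260 genes. Errors after ± are SEs of differences or SDs of levels, as stated. The number of arrays limits the precision. Genotypes came from the array titles, since the genotype field names another gene. The highest correlation between 2 arrays was 0.994, and none was treated as a copy of another.

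All 10 members were named, with up to 3 members of each other list past the threshold with the smallest p in a comparison, and the 10 genes most like the members. The members and lists were chosen with earlier results of these data known. Of 234 listed symbols 220 were on the array and 176 were tested. The main fit held no replicate block, so its p-values are unpaired in every comparison, and the block was run only as an alternative. As a description, samples with the same replicate number were called paired where every pair's deviations correlated over 0.1. They did for wild type and tag in spermatocytes (0.23 to 0.86) and in spermatids (0.16 to 0.42), and for spermatocytes and spermatids of wild type in experiment 1 (0.13 to 0.57) and experiment 2 (0.19 to 0.35), but not for kd-labelled against wild type in either cell type (lowest -0.06 and -0.05) or between cell types of tag or kd-labelled mice (lowest -0.03 and 0.03). In the sets called paired, 3 of 6, 4 of 6, 5 of 6 and 5 of 5 arrays correlated best with their own number, in that order. The fit was tested on simulated data. For kd-labelled against wild-type spermatocytes it recovered 34% of log2 changes of 0.5 and 94% of log2 changes of 1. A gene that did not pass is therefore not shown to be unchanged. Alternatives covered background, normalization, filter, probe choice, samples in the fit, replicate block, array weights, marker covariates and leaving out each array.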

Additional observations from a re-analysis of the deposited data

Results flagged for a closer look

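Of 60 sets of values checked (8 genes in the groups where they were above background on at least 1 array), 9 held 1 array whose gap to the nearest of the others, against the group's range, passed Dixon's 95% value. Chance gives about 1 in 20 such sets. All values are log2 intensities.

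In wild-type spermatocytes of experiment 1, Dusp1 was 8.25 on replicate 1 and 6.32 to 7.01 on the others, Egr1 was 6.10 on replicate 2 and 6.61 to 6.82 on the others, and Fos was 5.04 on replicate 5 and 4.63 to 4.77 on the others. In wild-type spermatids of experiment 1, Dusp1 was 8.84 on replicate 1 and 8.10 to 8.20 on the others. In tag spermatocytes, Zfp36 was 4.83 on replicate 6 and 5.36 to 5.66 on the others.

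In wild-type spermatocytes of experiment 2, Egr1 was 7.87 on replicate 1 and 6.62 to 6.79 on the others. In wild-type spermatids of experiment 2, Jun was 5.08 on replicate 2 and 4.41 to 4.59 on the others. In kd-labelled spermatids, Egr1 was 7.21 on replicate 2 and at most 8.25 on the others, which all lay above it, and Fosb was 4.52 on replicate 3 and 4.96 to 5.11 on the others.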

How the results depend on the processing

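Among 2712 values of single genes under an alternative, 2615 kept their direction and side of the threshold (or were uncalled in both), 50 lost the call, 45 gained it and 2 reversed: Dusp1 between kd-labelled cell types (-0.036 with the spermatid covariate) and Zfp36 between tag cell types (-0.33 with the macrophage covariate). Egr1 in tag spermatids passed in every setting run (0.60 to 1.16). No gene passed in tag spermatocytes or in the differences between effects under any setting run.

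Counts of genes called moved as follows. For kd-labelled spermatocytes, 3 became 5 with cyclic loess (Fos and Junb added) and 0 with the peritubular covariate, 4 with array weights or the replicate block (Fos added), 2 with the 2 groups alone (Egr1 lost), the macrophage covariate or the arrays highest in spermatid markers left out (Ier3 lost in both), and 2 to 4 with 1 array left out. For kd-labelled spermatids, 0 became 2 with array weights (Fos and Zfp36) and 0 to 1 with 1 array left out. Between cell types in wild type of experiment 1, 1 became 2 with median centring or cyclic loess, 3 with array weights, 0 with the spermatid or macrophage covariate, and 1 to 2 with 1 array left out (Ier3 added without spermatocyte replicate 6 or spermatid replicate 3, Fosb without spermatid replicate 2). In tag cells, 3 became 4 with cyclic loess (Ier3 added), 1 with median centring, 0 with either of these covariates, and 1 to 3 with 1 array left out. In wild type of experiment 2, 1 became 3 with median centring, cyclic loess or array weights, 2 with the 2 groups alone, the experiment alone, the replicate block or the peritubular covariate, 0 with the spermatid covariate, and 1 to 3 with 1 array left out (Egr1 and Zfp36 added without spermatocyte replicate 1, Egr1 without spermatid replicate 5, Ier3 without replicate 1, Jun without replicate 2). In kd-labelled cells, 4 became 6 with median centring (Fos and Zfp36 added, both lower), 1 with the spermatid covariate, 3 with no filter or the peritubular covariate (Junb lost) or the stricter filter (Jun not tested), stayed at 4 with the macrophage covariate with Zfp36 in place of Dusp1, and was 3 to 5 with 1 array left out (Zfp36 added without spermatid replicate 5). Between wild types of the experiments, 1 became 2 in spermatocytes with array weights or the spermatid covariate (Dusp1 added; 0 to 1 with 1 array left out), and 2 became 1 in spermatids with no background correction, cyclic loess, the authors' values or no filter (Fos lost) and 3 with the 2 groups alone, array weights, or the peritubular or spermatid covariate (Dusp1 added, adjusted p from 0.0103 to 0.0420), with Dusp1 in place of Fos under median centring and the macrophage covariate (1 to 2 with 1 array left out). The cause was not tested.

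Median centring shifted the median of all genes between cell types to -0.15 in wild type of experiment 1 and to -0.13 in tag cells. It was -0.14 in wild type of experiment 2 and -0.19 in kd-labelled cells, and 0.13 and 0.14 between experiments. Calls over all genes between cell types split 3413 higher and 4129 lower in wild type of experiment 1 (2618 and 4849 with median centring). They split 3633 and 3955 in tag cells (2764 and 4677), 3300 and 4300 in wild type of experiment 2 (2857 and 4905), and 3283 and 4308 in kd-labelled cells (2668 and 5181). Between experiments they split 1622 and 1537 in spermatocytes (3116 and 814) and 1775 and 1634 in spermatids (3017 and 613). For kd-labelled against wild type they split 85 and 147 in spermatids (58 and 164), and 101 and 90 in spermatocytes (102 and 136 with no background correction).

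The replicate number as a block, where samples of the same number were not called paired, gave Fos in kd-labelled spermatocytes a limma adjusted p of 0.0102. It changed no other call besides Egr1 between cell types of experiment 2, given above, and could not be fitted between experiments. Slide was not run, since no slide is named in the files used here. Fosb and Jun fell out under the stricter filter. The probes of Fosb, Jun and Junb lay close to background, which limits what their differences can show.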
